A study of Mus musculus with 12 samples.

Results

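The genes described here encode the enzymes that cut and rejoin DNA during V(D)J recombination, followed across 12 RNA-seq libraries of a mouse T cell leukemia line. They were taken by symbol from a fixed list (Rag1, Rag2, Dntt, Prkdc, Dclre1c, Lig4, Xrcc4, Xrcc5, Xrcc6 and Nhej1), and all 10 were found among the 23284 gene symbols measured. The line, 8946, is a mouse T lymphoblastic leukemia grown in culture. All cells carried a pair of retroviral vectors: the first empty (MigR1) or expressing the Notch1 mutant L1601P with GFP, the second empty (NGFR) or expressing Zmiz1 with NGFR. Cells positive for both GFP and NGFR were sorted, and each of the 4 vector combinations gave 3 libraries. Zmiz1 encodes a PIAS-like protein that helps transcription factors activate genes. Notch1 encodes a cell surface receptor, and its freed intracellular part activates genes in thymocytes and T cell leukemias. Everything here comes from 1 line. The labels leave unsaid whether replicates were transduced or grown separately, so p-values cover the spread among libraries alone, and that spread may be technical.

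In V(D)J recombination, RAG1 and RAG2 form the recombinase that cuts antigen receptor genes next to recombination signals, leaving hairpin-sealed coding ends. The Ku heterodimer (Xrcc6 and Xrcc5) binds the broken ends and recruits DNA-PKcs (Prkdc), which activates Artemis (Dclre1c) to open the hairpins. Terminal transferase (Dntt) adds untemplated nucleotides, and DNA ligase IV (Lig4) with Xrcc4 and XLF (Nhej1) seals the joint. Thymocytes use RAG1, RAG2 and terminal transferase while they assemble T cell receptor genes, whereas the other factors repair double-strand breaks in most cell types.

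Titles and cell line labels disagree for both groups that carried 1 gene. The cell line label reads L1601P/NGFR where the title says Zmiz1, and MigR1/Zmiz1 where the title says Notch1. The column headers of the deposited tables (ZMIZonly and Notchonly) go with the titles, and so do the vector genes. Zmiz1 averaged 70.8 ± 3.39 FPKM (fragments per kilobase of transcript, scaled for library size) in the libraries titled Zmiz1 against 0.212 ± 0.0153 in those titled Notch1, and Notch1 averaged 2.1 ± 0.218 and 32.1 ± 10.1 in the same order (mean ± SD, n = 3 here and throughout). Groups are named by title below: control (both vectors empty), Zmiz1, Notch1 and combined (both genes). The T cell markers were present in every group, with all 11 listed markers above 1 FPKM and a summed level of 3422 to 4805 FPKM. None of 9 B cell markers reached a mean of 1 FPKM, and Pax5, which defines B cells, was at or near 0. The stage markers Cd4, Cd8a and Cd8b1 averaged 429, 647 and 1005 FPKM in the control, both coreceptors together being the surface pattern of double-positive thymocytes. In bulk RNA, fewer cells of a type and less RNA per cell cannot be told apart. Erythroid, NK and fibroblast markers (0 of 4 in each list) also stayed under a mean of 1 FPKM. Of 6 myeloid markers only Itgam passed, at 55.7 to 99.5 FPKM as group means.

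Zmiz1 replicate 2 and Notch1 replicate 3 stood apart from the other libraries. Relative depth, estimated from the commonest ratio between libraries of FPKM values in genes averaging under 0.1 FPKM, lay between 0.767 (Zmiz1 replicate 2) and 1.23 (Notch1 replicate 1), and the mean correlation with all other libraries was lowest for Zmiz1 replicate 2 (0.942, against up to 0.957). Transcripts over 8000 bases against those under 1500 bases differed in Notch1 replicate 3 by -0.54 on the log2 scale, as deviations from the mean of all libraries, and in the other 11 libraries by -0.09 to 0.22 (highest in Zmiz1 replicate 2). The libraries' read totals are not known, so precision can be stated only in relative terms. Member differences that moved by over 1.5 times without either library are given with and without it.

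The promoters of the 4 members whose levels are followed most closely below are shown here because Rag1, Rag2, Dntt and Xrcc6 are the lymphoid-restricted genes and the end joining gene with the most calls. Each is a RefSeq window (GRCm38.p6, equal to mm10 in its coordinates) of 300 bases, from 250 before to 50 after the annotated start, read 5′ to 3′ on the gene's strand. Capitals mark each CANNTG, the E-box to which basic helix-loop-helix proteins such as the E proteins bind. The windows are chr2:101649483-101649782 (minus strand), chr2:101624462-101624761 (plus), chr19:41029025-41029324 (plus) and chr15:82016119-82016418 (plus, inside the span that GENCODE gives the gene, whose outermost start lies further upstream).
Rag1: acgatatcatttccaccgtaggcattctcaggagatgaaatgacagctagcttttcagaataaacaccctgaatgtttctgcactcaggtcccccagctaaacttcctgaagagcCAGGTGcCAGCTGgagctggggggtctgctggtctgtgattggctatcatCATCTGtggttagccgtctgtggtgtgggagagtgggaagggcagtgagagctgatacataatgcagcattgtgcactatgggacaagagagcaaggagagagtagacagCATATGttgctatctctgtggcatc
Rag2: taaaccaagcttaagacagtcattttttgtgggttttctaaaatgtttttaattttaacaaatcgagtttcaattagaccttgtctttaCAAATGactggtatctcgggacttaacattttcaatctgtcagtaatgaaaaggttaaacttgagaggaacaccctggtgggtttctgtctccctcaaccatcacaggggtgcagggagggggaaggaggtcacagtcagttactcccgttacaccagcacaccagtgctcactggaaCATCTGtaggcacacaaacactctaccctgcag
Dntt: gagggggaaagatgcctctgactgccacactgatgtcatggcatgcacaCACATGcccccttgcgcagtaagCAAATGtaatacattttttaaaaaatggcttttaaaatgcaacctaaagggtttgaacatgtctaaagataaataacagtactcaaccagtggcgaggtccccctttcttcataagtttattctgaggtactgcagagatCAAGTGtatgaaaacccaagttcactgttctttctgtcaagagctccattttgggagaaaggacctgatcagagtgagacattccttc
Xrcc6: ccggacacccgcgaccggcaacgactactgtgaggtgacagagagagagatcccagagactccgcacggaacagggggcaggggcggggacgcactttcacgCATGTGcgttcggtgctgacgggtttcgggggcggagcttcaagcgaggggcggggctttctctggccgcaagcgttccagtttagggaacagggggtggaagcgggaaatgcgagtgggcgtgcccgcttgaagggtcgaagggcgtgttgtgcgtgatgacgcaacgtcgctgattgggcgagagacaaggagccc
The Rag1 window held 4 E-boxes, Dntt 3, Rag2 2 and Xrcc6 1, while 72.3% of 32851 promoter windows of this length held at least 1. The letters TGGGAA, the core that the Notch partner RBPJ and the Ikaros factors share, were found on either strand once in the Rag1 window and in none of the other 3 (25.6% of all windows held it). TGTGGT, a RUNX site, was found 2 times in the Rag1 window and in none of the other 3 (16.8% of all windows). The letters GATAA, bound by GATA factors, were found once in the Dntt window and in none of the other 3 (25.4% of all windows), and the MYC-type E-box CACGTG, a case of CANNTG, was in none of the 4 (7.15%). Windows were at hand for 9 of the 10 members. A match describes letters only, and binding was not measured.

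The 10 genes covered a wide range of levels. By mean FPKM over the 12 libraries Dntt ranked 62nd of the 16835 symbols above 0, Rag1 180th and Xrcc6 295th, and Lig4 was at 135.9 FPKM. Rag2, Xrcc4 and Xrcc5 averaged 20.8, 15.1 and 10.0 FPKM, and Dclre1c, Nhej1 and Prkdc 8.86, 7.99 and 5.46 FPKM. All 10 passed the filter at a mean of 1 FPKM. Of the 60 tests of 10 genes in 6 pairwise comparisons, 8 passed limma's adjusted p of 0.05 (Benjamini-Hochberg over 10152 genes), 6 in the upward and 2 in the downward direction of the comparison as named. Those calls fell on 4 genes, Rag2, Xrcc6, Dclre1c and Lig4, in comparisons that share libraries. Of all tested genes, 1.51% to 10.9% were called in each of the 6 comparisons. The plot of FPKM by library shows each value.

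**Figure D1:**
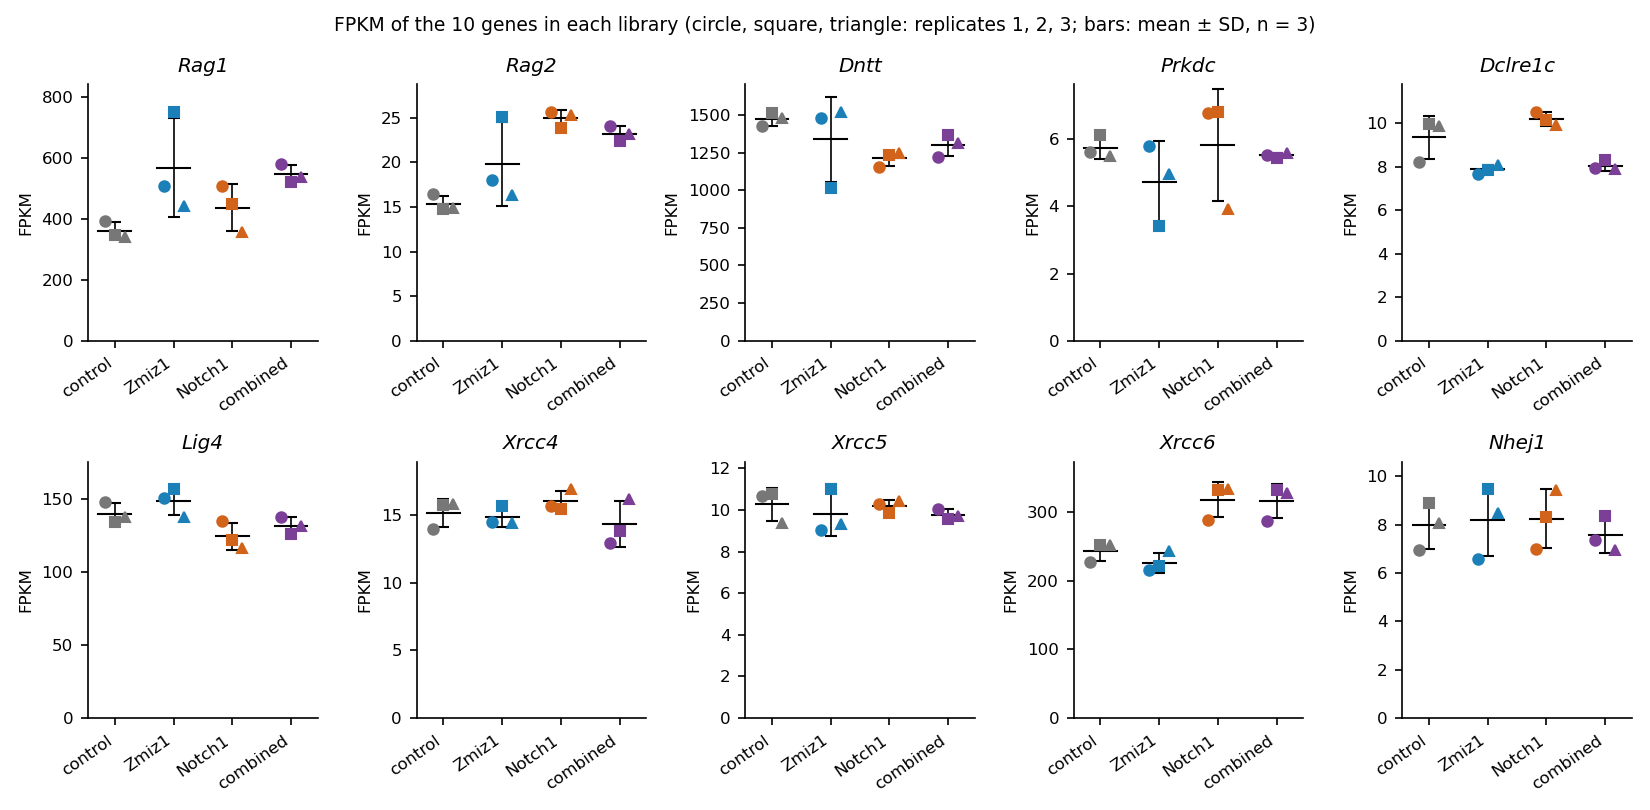
Each panel plots 1 gene, with FPKM (linear, from 0) on the vertical axis and the 4 groups on the horizontal axis; symbols are replicates 1 (circle), 2 (square) and 3 (triangle), and bars give the mean and SD of 3 libraries. Rag2 in all Notch1 and combined libraries lies above all control libraries, as does Xrcc6, and Zmiz1 replicate 2 is the highest Rag1 value (751) and the lowest Dntt value (1015).

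Rag2 carries the noncatalytic recombinase subunit, whose PHD finger reads histone H3 methylation. It was at 16.4, 14.8 and 14.9 FPKM in control replicates 1 to 3, 18, 25.1 and 16.3 in Zmiz1, 25.7, 23.9 and 25.3 in Notch1 and 24, 22.4 and 23.2 in combined libraries. Every library with the Notch1 mutant lay above every control library, and Zmiz1 replicate 2 lay among them while the other Zmiz1 libraries were near the control. In order of group means the levels were Notch1 (25 ± 0.933), combined (23.2 ± 0.837), Zmiz1 (19.8 ± 4.68) and control (15.4 ± 0.91). Neighbours in this order did not pass the test against each other: Notch1 and combined differed by -0.10 (combined minus Notch1, adjusted p = 0.966), combined and Zmiz1 by 0.24 (adjusted p = 0.385) and Zmiz1 and control by 0.33 (adjusted p = 0.281), all as log2 fold changes of FPKM + 1. Without Zmiz1 replicate 2 the difference between Zmiz1 and control was 0.15 (adjusted p = 0.385).

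Rag2 rose 1.62-fold in Notch1 against control libraries (log2 fold change 0.67, SE 0.12, limma adjusted p = 0.0103) and 1.51-fold in combined against control libraries (0.57, SE 0.12, adjusted p = 0.0210). The first call was lost without control replicate 2 (adjusted p = 0.0518), and the second, at 0.0633 to 0.0881, without control replicate 2 or 3 or any 1 combined library. Without Zmiz1 replicate 2, Rag2 was higher in combined than in Zmiz1 libraries (0.42, adjusted p = 0.00712) and lower in Zmiz1 than in Notch1 libraries (-0.52, adjusted p = 9.46e-04, against -0.34 and 0.111 with it). The interaction, the difference between the effect of Zmiz1 with and without the Notch1 mutant, was -0.43 for Rag2 (SE 0.17, unadjusted p = 0.0337, adjusted p = 0.999), and -0.25 without Zmiz1 replicate 2.

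Rag1 carries the catalytic subunit, which binds the recombination signal and cuts. It was at 393, 349 and 342 FPKM in the control, 509, 751 and 442 in Zmiz1, 507, 449 and 356 in Notch1 and 581, 520.4 and 538 in combined libraries (replicates 1 to 3). All Zmiz1 and combined libraries lay above the control, whereas Notch1 replicate 3, the library with fewer long transcripts, lay within its range. The Rag1 transcript is 6608 bases long in GENCODE. The order of means was Zmiz1 (568 ± 163), combined (546 ± 31), Notch1 (437 ± 76.1) and control (361 ± 27.7).

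Rag1 was not called in any of the 6 comparisons in the full set of libraries, in the fit without a block for the replicate number. It was 1.57 times the control in Zmiz1 libraries (log2 fold change 0.62, 95% interval 0.22 to 1.01, limma adjusted p = 0.140), 1.51 times in combined libraries (0.60, interval 0.20 to 0.99, adjusted p = 0.0833) and 1.21 times in Notch1 libraries (0.26, interval -0.13 to 0.66, adjusted p = 0.489). Without Zmiz1 replicate 2, whose value of 751 was the highest, the difference between Zmiz1 and control libraries was 0.40 (adjusted p = 0.242), and Rag1 was called in combined against control libraries (0.60, adjusted p = 0.0141). Without both Zmiz1 replicate 2 and Notch1 replicate 3 it was called there (adjusted p = 0.00237) and in Notch1 against control libraries (0.40, adjusted p = 0.0333, against 0.337 without Notch1 replicate 3 alone). The set without both was chosen after seeing the data. Combined against control holds neither library, so the difference there stayed at 0.60 and only the shared spread changed. Combined libraries were 1.25 times Notch1 libraries (0.33, adjusted p = 0.691), a difference of 0.19 without Notch1 replicate 3. Zmiz1 libraries stood 0.35 above Notch1 libraries (adjusted p = 0.239), a difference of 0.13 without Zmiz1 replicate 2, 0.21 without Notch1 replicate 3 and -0.01 without both.

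Rag1 and Rag2 are neighbours on chromosome 2, on opposite strands with their 3′ ends facing each other. On GRCm38 (GENCODE M21) Rag2 spans 101624718 to 101632529 on the plus strand and Rag1 101638282 to 101649501 on the minus strand, with 5752 bases between them. The ratio of Rag1 to Rag2 FPKM was 23.5 ± 0.524 in the control, 28.4 ± 1.41 in Zmiz1, 17.5 ± 3.05 in Notch1 and 23.5 ± 0.534 in combined libraries. The Zmiz1 libraries (27.1 to 29.9) lay above and the Notch1 libraries (14.1 to 19.8) below all control (22.9 to 23.9) and combined (23.2 to 24.1) libraries. The lowest value, 14.1, was that of Notch1 replicate 3, and the remaining Notch1 libraries still did not overlap the other groups. These ratios were computed after the values had been seen and carry no test.

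**Figure D2:**
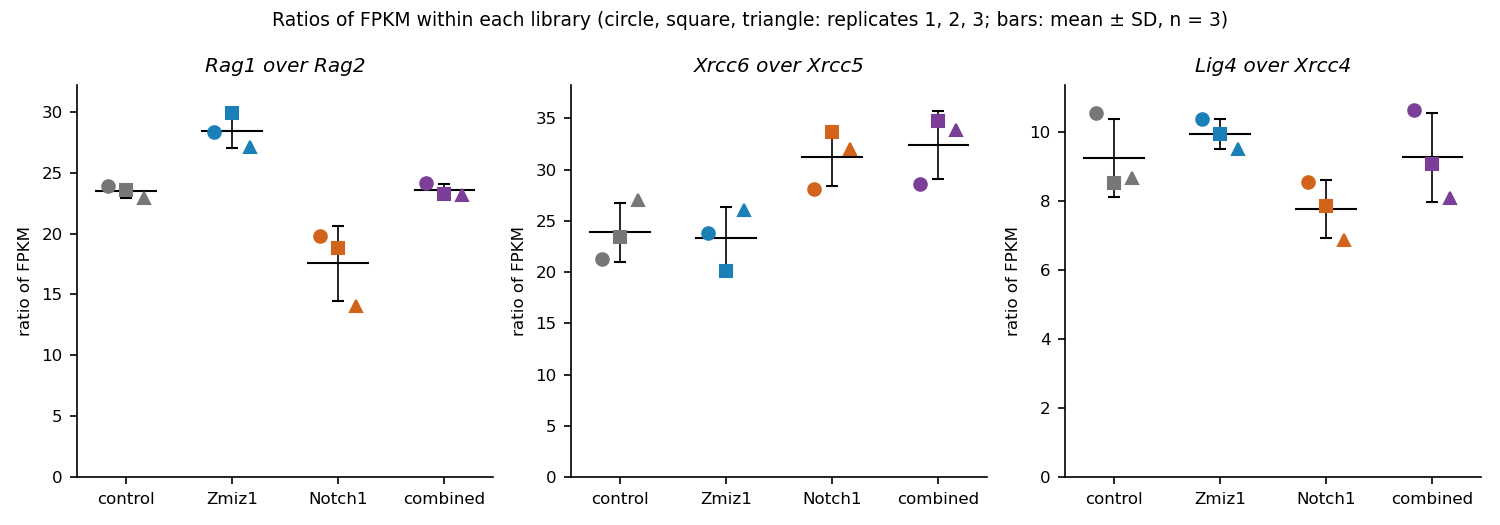
Ratios of FPKM within each library (vertical axes from 0, no unit) for Rag1 over Rag2, Xrcc6 over Xrcc5 and Lig4 over Xrcc4 in the 4 groups; symbols are replicates 1 (circle), 2 (square) and 3 (triangle) and bars give mean and SD. The Rag1 over Rag2 ratio is lowest in Notch1 and highest in Zmiz1 libraries, and Xrcc6 over Xrcc5 is higher in Notch1 (28.1 to 33.7) and combined (28.6 to 34.7) than in control (21.3 to 27.0) libraries.

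Genes around the recombinase locus were not called. B230118H07Rik, whose span on the minus strand (101560781 to 101649532) includes both Rag genes, averaged 8.45 ± 0.443 FPKM in the control, 8.58 ± 1.02 in Zmiz1, 9.43 ± 0.386 in Notch1 and 8.5 ± 0.72 in combined libraries. It was not called in Notch1 against control libraries (0.14, limma adjusted p = 0.421), although its 3 Notch1 values lay above the 3 control values. The library kit keeps no strand, so reads of overlapping genes on opposite strands cannot be told apart. Of 3 tested genes in the list of locus neighbours (with Traf6, a signaling ligase, and Commd9), 0 passed limma's test in any of the 7 comparisons, and 0 had an unadjusted p under 0.05. In the pairwise comparisons 1.51% to 10.9% of all tested genes were called, so 0 of 3 says little.

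Dntt (chromosome 19, 41029275 to 41059525, plus strand) was the most abundant member. It was at 1424, 1513 and 1478 FPKM in the control, 1478, 1015 and 1519 in Zmiz1, 1156, 1236 and 1244 in Notch1 and 1221, 1363 and 1312 in combined libraries. All Notch1 and combined libraries lay below all control libraries, and Zmiz1 replicate 2 lay below every other library while the remaining Zmiz1 libraries were within or just above the control range. How many of all genes separate the groups in this way was not computed. The order of means was control (1471 ± 44.7), Zmiz1 (1338 ± 280.1), combined (1299 ± 71.9) and Notch1 (1212 ± 48.4).

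No difference in Dntt passed in the full set. Notch1 libraries were at 0.824 times the control (log2 fold change -0.28, 95% interval -0.56 to 0.00, limma adjusted p = 0.269), combined libraries at 0.883 times (-0.18, interval -0.46 to 0.10, adjusted p = 0.516) and Zmiz1 libraries at 0.909 times (-0.16, adjusted p = 0.667). Without Zmiz1 replicate 2 the same Notch1 difference was called (-0.28, adjusted p = 0.0147), and the Zmiz1 difference turned to 0.03 (adjusted p = 0.976). Leaving out Notch1 replicate 3 as well gave adjusted p = 0.0462 for combined against control libraries. That set was chosen after seeing the data, and Zmiz1 replicate 2 held the lowest Dntt and the highest Rag1 value. Combined against control holds neither library, so the Dntt difference there stayed at -0.18 and only the shared spread changed. In the full set mean Rag2 and Rag1 were above and mean Dntt below the control in every other group, with or without the Notch1 mutant.

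Xrcc6 (chromosome 15, 81987835 to 82040085, plus strand) encodes Ku70, which with Ku80 forms the ring that slides onto a DNA end. It was at 227, 252 and 253 FPKM in the control, 215, 222 and 243 in Zmiz1, 289, 332 and 334 in Notch1 and 288, 332 and 328 in combined libraries. Every library with the Notch1 mutant lay above every library without it. The order of means was Notch1 (318 ± 25.3), combined (316 ± 24.7), control (244 ± 14.6) and Zmiz1 (227 ± 14.6).

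Xrcc6 rose 1.30-fold in Notch1 against control libraries (log2 fold change 0.38, SE 0.08, limma adjusted p = 0.0247) and 1.30-fold in combined against control libraries (0.37, SE 0.08, adjusted p = 0.0244). It rose 1.39-fold in combined against Zmiz1 libraries (0.48, adjusted p = 0.00933) and was lower in Zmiz1 than in Notch1 libraries (-0.49, adjusted p = 0.00390). Differences within the groups with the mutant (combined minus Notch1, -0.01, interval -0.19 to 0.17) and without it (Zmiz1 minus control, -0.11, adjusted p = 0.662) were not called. Without any 1 library the log2 fold change against the control stayed between 0.33 and 0.45 in Notch1 and between 0.32 and 0.44 in combined libraries, but the adjusted p did not always stay under the threshold. In Notch1 libraries the call was lost, at 0.0640 to 0.106, without any 1 control library or Notch1 replicate 2 or 3, and at 0.0528 under quantile normalization. In combined libraries it was lost, at 0.0616 to 0.111, without any 1 control library or combined replicate 2 or 3. The call against Zmiz1 libraries was lost without combined replicate 2 (0.0558) or 3 (0.0549), while the call between Zmiz1 and Notch1 libraries was kept without any 1 library.

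Genes next to Xrcc6 also had higher means in Notch1 than in control libraries. Desi1 (listed in the files by its older symbol Pppde2), on the minus strand at 81992523 to 82033862, lies within the annotated span of Xrcc6. Pppde2 averaged 220.2 ± 3.47 FPKM in the control, 201 ± 15.8 in Zmiz1, 298 ± 11.8 in Notch1 and 285 ± 2.34 in combined libraries. Pppde2 rose in Notch1 (0.43, adjusted p = 0.00199) and combined libraries (0.37, adjusted p = 0.00462) against the control, and in combined replicate 1 both genes are listed at 287.7 FPKM. Nhp2l1, now Snu13, a small ribonucleoprotein component whose 3′ end lies 439 bases beyond that of Xrcc6 on the opposite strand, averaged 378 ± 38.6 FPKM in the control and 505 ± 48 in Notch1 libraries (0.42, adjusted p = 0.0507). These neighbours were chosen for their position after the Xrcc6 values had been seen. Without strand, reads of Xrcc6 and Desi1 in shared sequence cannot be told apart, so the level of each is uncertain.

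Xrcc5 (chromosome 1, 72307421 to 72394952), which encodes Ku80, the obligate partner of Ku70, was not called in any comparison. It was at 10.7, 10.8 and 9.36 FPKM in the control, 9.04, 11 and 9.33 in Zmiz1, 10.3, 9.87 and 10.4 in Notch1 and 10.1, 9.57 and 9.71 in combined libraries, and all groups overlapped. The widest difference from the control was -0.06 in Zmiz1 libraries (95% interval -0.23 to 0.10, limma adjusted p = 0.785), and -0.14 there without Zmiz1 replicate 2 (adjusted p = 0.385). Xrcc6 FPKM was 20.2 to 34.7 times Xrcc5 FPKM within a library. The ratio was 23.9 ± 2.88 in control, 23.3 ± 2.99 in Zmiz1, 31.3 ± 2.87 in Notch1 and 32.4 ± 3.31 in combined libraries.

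Prkdc (chromosome 16, 15637866 to 15842235), the catalytic subunit of DNA-PK, has the longest transcript of the members, 12647 bases. It was at 5.61, 6.14 and 5.5 FPKM in the control, 5.8, 3.4 and 4.96 in Zmiz1, 6.79, 6.81 and 3.91 in Notch1 and 5.54, 5.44 and 5.58 in combined libraries. Zmiz1 replicate 2 (3.40) and Notch1 replicate 3 (3.91) were the lowest of all 12, and the groups overlapped. Differences were -0.26 in Zmiz1 against control (95% interval -0.67 to 0.15, limma adjusted p = 0.624) and 0.21 in combined against Zmiz1 libraries (adjusted p = 0.625). Without Zmiz1 replicate 2 they were -0.08 (adjusted p = 0.966) and 0.03 (adjusted p = 0.972). Notch1 replicate 3 had the lowest balance of long to short transcripts, but Zmiz1 replicate 2 had the highest, as the plot of FPKM against this balance shows. The part of RNA quality in these values was not tested.

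**Figure D3:**
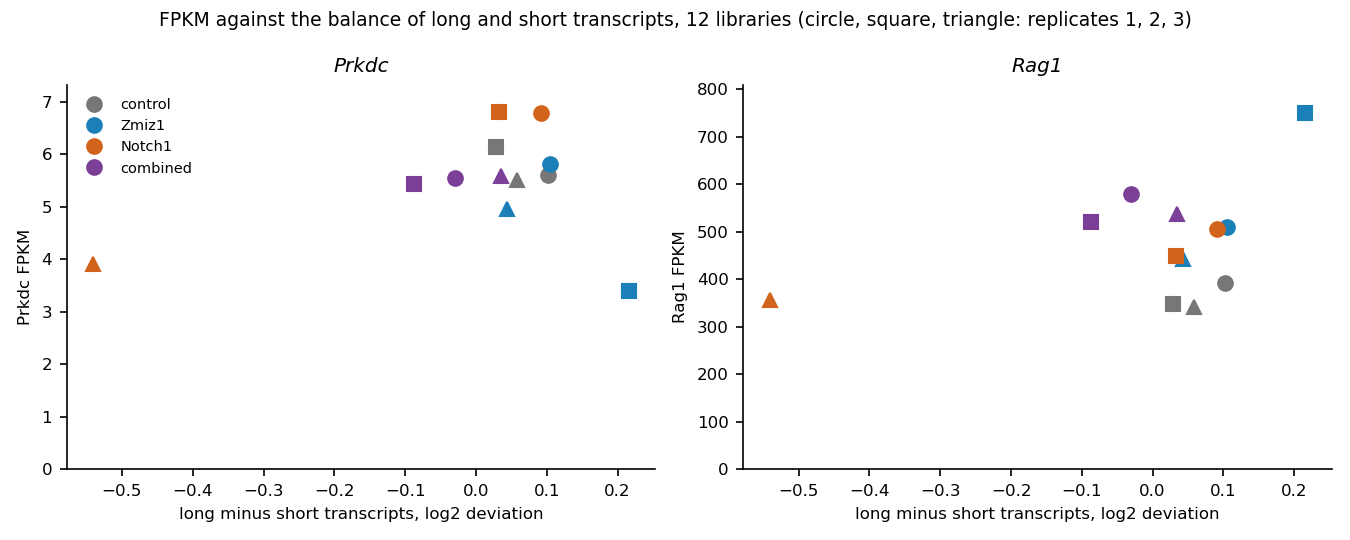
FPKM of Prkdc (left) and Rag1 (right) on the vertical axes (from 0) against the balance of long (over 8000 bases) and short (under 1500 bases) transcripts on the horizontal axes, as the difference of their median log2 deviations; each point is 1 of 12 libraries, colored by group, with symbols for replicates 1 (circle), 2 (square) and 3 (triangle). Notch1 replicate 3 lies alone at -0.54, with the second lowest Prkdc value, and Zmiz1 replicate 2 lies at 0.22 with the lowest Prkdc and the highest Rag1 value.

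Dclre1c (chromosome 2, 3424131 to 3464130) encodes Artemis, the nuclease that opens coding-end hairpins. It was at 8.22, 9.95 and 9.88 FPKM in the control, 7.67, 7.86 and 8.09 in Zmiz1, 10.5, 10.1 and 9.91 in Notch1 and 7.93, 8.31 and 7.89 in combined libraries. All 6 libraries with the Zmiz1 vector lay below all Notch1 libraries, and control replicate 1 (8.22) lay below the remaining control libraries and below combined replicate 2 (8.31). The order of means was Notch1 (10.2 ± 0.304), control (9.35 ± 0.98), combined (8.04 ± 0.228) and Zmiz1 (7.87 ± 0.211).

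Dclre1c was lower in Zmiz1 than in Notch1 libraries, at 0.773 times (log2 fold change -0.33, SE 0.07, limma adjusted p = 0.0110), a call kept without any 1 library. In combined against Notch1 libraries it was at 0.789 times (-0.31, interval -0.46 to -0.15) and missed the threshold (adjusted p = 0.0629). It was called there without control replicate 1 (0.0209) or Zmiz1 replicate 2 (0.0468), which changes only the shared spread. Dclre1c was not called there without any other 1 library (up to 0.246), nor without both Zmiz1 replicate 2 and Notch1 replicate 3 (0.0756). Against the control the differences were -0.22 in Zmiz1 (adjusted p = 0.180) and -0.19 in combined libraries (adjusted p = 0.155). Without control replicate 1 they were called, at -0.30 (adjusted p = 0.0471) and -0.27 (adjusted p = 0.0327). Both comparisons use the same control libraries.

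Lig4 (chromosome 8, 9969049 to 9977686, minus strand), the ligase of end joining, was at 148, 134 and 137 FPKM in the control, 150.3, 156 and 138 in Zmiz1, 135, 121 and 116 in Notch1 and 138, 126 and 131 in combined libraries. All Zmiz1 libraries lay above all Notch1 libraries, by a narrow margin (137.5 against 134.6), and the control and combined groups overlapped both. The order of means was Zmiz1 (148 ± 9.63), control (139.7 ± 6.96), combined (131 ± 5.96) and Notch1 (124 ± 9.39).

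Lig4 was 1.19 times as high in Zmiz1 as in Notch1 libraries (log2 fold change 0.25, limma adjusted p = 0.0496), a call at the edge of the threshold. It was lost, at 0.0584 to 0.145, without any 1 library other than Zmiz1 replicate 3 or Notch1 replicate 1, and at 0.0520 to 0.0573 with a pseudocount of 0.1, without a filter, with a filter at 5 FPKM and under quantile normalization. Without both Zmiz1 replicate 2 and Notch1 replicate 3 the difference was 0.17 (adjusted p = 0.240). Lig4 was not called in Notch1 against control (-0.17, adjusted p = 0.234) or in combined against Zmiz1 libraries (-0.17, adjusted p = 0.284). Abhd13 starts 20 bases from Lig4 on the opposite strand and averaged 37.1 ± 3.94 FPKM in the control and 35.4 ± 4.17 in Notch1 libraries (-0.07, adjusted p = 0.843).

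The partners of the ligase were not called in any comparison. Xrcc4 (chromosome 13, 89774027 to 90089608), the scaffold that stabilizes ligase IV, lay between 12.9 and 16.9 FPKM in the 12 libraries, and its largest difference was -0.16 in combined against Notch1 libraries (95% interval -0.34 to 0.03, limma adjusted p = 0.689). Nhej1 (chromosome 1, 74967139 to 75125200), the XRCC4-like factor, lay between 6.59 and 9.47 FPKM, with a largest difference of -0.11 in the same comparison (interval -0.41 to 0.20, adjusted p = 0.970), and -0.02 there without Notch1 replicate 3. For both genes the groups overlapped throughout. Lig4 FPKM was 6.88 to 10.7 times that of Xrcc4 within a library.

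**Figure D4:**
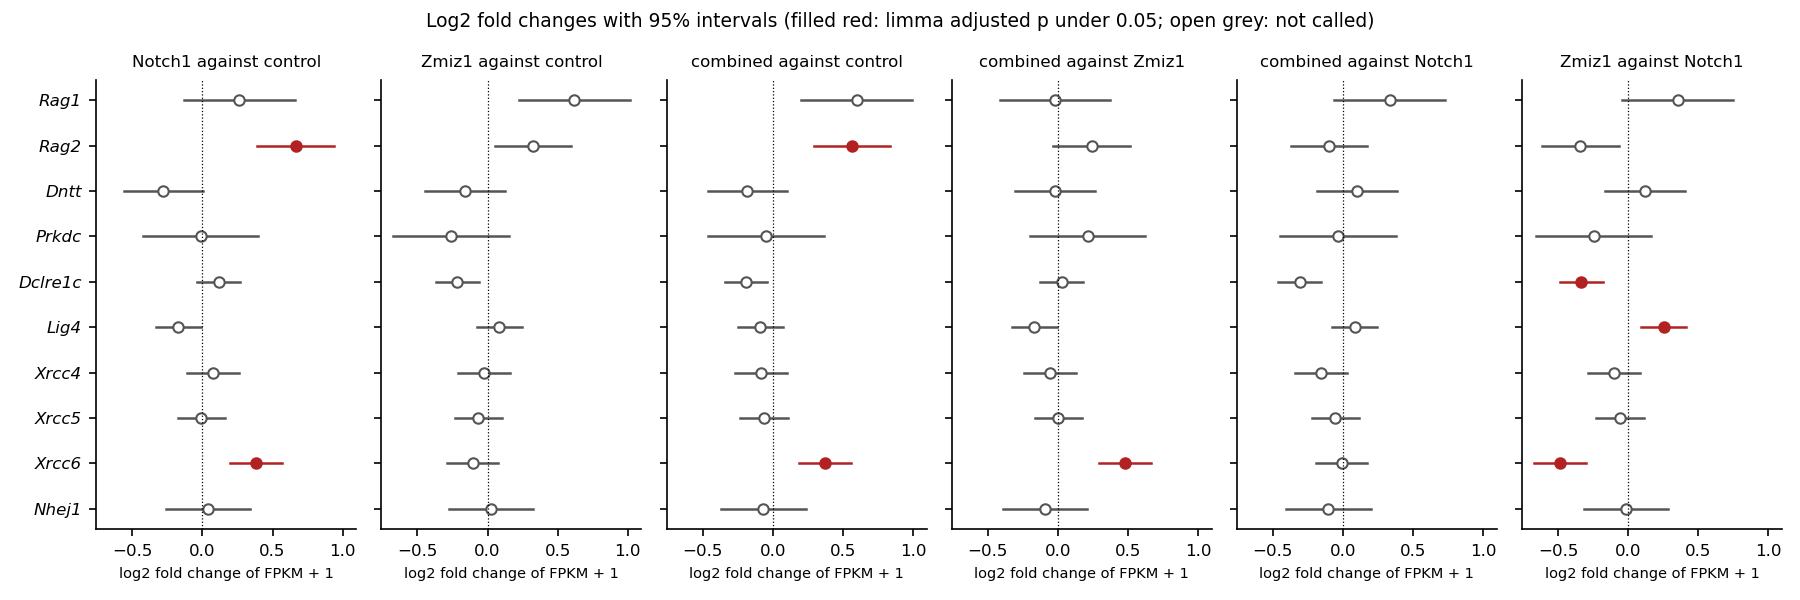
Log2 fold changes of FPKM + 1 (horizontal axes) for the 10 genes (rows) in 6 pairwise comparisons (panels), with 95% intervals; filled red points passed limma's adjusted p of 0.05 and open grey points did not. The 8 filled points belong to Rag2 (0.67 and 0.57), Xrcc6 (0.38, 0.37, 0.48 and -0.49), Dclre1c (-0.33) and Lig4 (0.25). Of all tested genes, 1.51% to 10.9% were called per panel.

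By comparison, the members' calls were read against those of all tested genes. In Notch1 against control libraries 2 of 10 members rose (Rag2 and Xrcc6) and 0 fell, where 5.49% of the 10152 genes were called (3.19% up, 2.30% down), and the members' median log2 fold change was 0.06 against 0.02 for all genes. The count was 0 without control replicate 2 and 1 without control replicate 1 or 3 or Notch1 replicate 2 or 3. It was 3 without Zmiz1 replicate 2, Dntt being added as lower, and 3 without both libraries that stood apart (Rag1 and Rag2 higher, Dntt lower). In combined against control libraries the same 2 rose and 0 fell (6.46% of all genes called, 3.97% up and 2.49% down), with a median of -0.06 against 0.02. That count was 0 without control replicate 2 or 3 or combined replicate 2 or 3, 1 without combined replicate 1, 3 without Zmiz1 replicate 2 (Rag1 being added), and 4 (Rag1, Rag2 and Xrcc6 higher, Dntt lower) without both Zmiz1 replicate 2 and Notch1 replicate 3. Zmiz1 replicate 2 and Notch1 replicate 3 are not part of combined against control, so leaving them out changed only the shared spread there. In combined against Zmiz1 libraries 1 rose, Xrcc6, and 0 fell (3.86% of all genes, 2.67% up and 1.19% down), with a median of -0.01 against 0.02. The count was 0 without combined replicate 2 or 3 and 2 without Zmiz1 replicate 2 (Rag2 being added).

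In Zmiz1 against Notch1 libraries 1 of 10 was higher (Lig4) and 2 were lower (Dclre1c and Xrcc6), where 10.9% of all genes were called (4.36% up, 6.56% down) and the members' median was -0.08 against -0.03. Without Zmiz1 replicate 2 the count was 4, with Dntt higher (0.31, limma adjusted p = 0.0136) and Rag2, Dclre1c and Xrcc6 lower. Without both Zmiz1 replicate 2 and Notch1 replicate 3 it was 5, with Prkdc (-0.29, adjusted p = 0.0396) also lower. T cell and stage markers moved in the same comparison: 7 of 11 T cell markers and 4 of 5 tested stage markers were lower in Zmiz1 libraries. In Notch1 against control libraries 2 of 5 stage markers were higher and 0 of 11 T cell markers called (5.49% of all genes). In Zmiz1 against control libraries 2 of 11 T cell markers were lower and 0 of 5 stage markers called (2.11%). Combined libraries had 1 stage marker higher than the control (6.46%) and 1 lower than Notch1 libraries (1.51%). They had 1 of each list higher than Zmiz1 libraries (3.86%). The summed T cell markers were 3422 to 3757 FPKM in Zmiz1 and 4075 to 4805 FPKM in Notch1 libraries, against 3941 to 4160 in the control and 3855 to 4141 in combined libraries. Ptcra, the pre-T cell receptor chain and a known Notch target, was 2.01 higher in Notch1 than in control libraries (adjusted p = 4.89e-06) and 1.02 higher in combined than in control libraries (adjusted p = 5.91e-04), as log2 fold changes of FPKM + 1. Its means were 0.555, 5.29 and 2.15 FPKM in control, Notch1 and combined libraries, so the added 1 made these differences smaller than those of FPKM itself. Itgam, an integrin chain typical of myeloid cells, was lower in the same comparisons (-0.83, adjusted p = 2.83e-05, and -0.72, adjusted p = 5.89e-05). The part of cell state in the members' values was not tested.

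Differences that follow the Zmiz1 vector alone gave no call among the members. In Zmiz1 against control libraries 0 of 10 passed limma's test (2.11% of all genes, 1.07% up and 1.03% down), and 3 had an unadjusted p under 0.05. In combined against Notch1 libraries 0 of 10 passed limma's test (1.51% of all genes, 0.827% up and 0.680% down), and 1 had an unadjusted p under 0.05. Each count was 1 without control replicate 1, and the second was also 1 without Zmiz1 replicate 2, with Dclre1c the gene in all 3 cases. For the interaction 0 of 10 passed limma's test (0.0690% of all genes, 0.0197% up and 0.0493% down), and Rag2 was the 1 member with an unadjusted p under 0.05. The share of all genes at an unadjusted p under 0.05 was not computed. These comparisons share libraries, so their values are not independent of each other.

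The other genes of break repair and of Rag control were followed through lists. Of all tested genes, 1.51% to 10.9% were called in each pairwise comparison, so 0 calls in a short list say little about it. Of 11 tested RAG cofactors and accessory end joining factors, among them the DNA-bending proteins Hmgb1 and Hmgb2 and the polymerases Polm and Poll, 0 were called in limma between Notch1 and control libraries (0 also at an unadjusted p under 0.05) and the median was 0.07, against 0.02 for all genes. Hmgb2 averaged 939.6 ± 89.1 FPKM in the control and 1088 ± 107 in Notch1 libraries. Cib1, a DNA-PKcs-interacting calcium-binding protein, was the 1 gene of this list called in any comparison, lower in Zmiz1 than in Notch1 libraries (-0.31, adjusted p = 0.0336). That call was lost, at 0.0523 to 0.101, without 8 of the 12 libraries in turn, the 4 others being control replicate 1, Notch1 replicate 1 and combined replicates 1 and 2. Of 15 break signaling and end protection genes, such as Atm, H2afx and Trp53bp1, 0 passed limma's test in any comparison, with 2 at an unadjusted p under 0.05 in each of Notch1, Zmiz1 and combined against control libraries. Of 8 alternative end joining genes, such as Polq, Parp1 and Lig3, 0 passed in any comparison, and 2, 1 and 2 had an unadjusted p under 0.05 in the same order. Without 1 library at a time, up to 1 gene of the break signaling list and up to 2 of the alternative end joining list were called. The share of all genes at an unadjusted p under 0.05 was not computed, so counts at that threshold have no background here.

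Of 15 tested genes listed as regulators of Rag transcription, 3 were higher and 0 lower in Zmiz1 than in Notch1 libraries, where 10.9% of all genes were called (4.36% up, 6.56% down). The list mixes activators with inhibitors such as Id2 and Id3, so its median (0.21, against -0.03 for all genes) has no single reading. The count was 2 without Notch1 replicate 3 and 5 without both libraries that stood apart. Gata3 averaged 123 ± 26.2 against 62.8 ± 3.42 FPKM (0.94, adjusted p = 7.88e-04), Ikzf1, which encodes Ikaros, 308 ± 17.5 against 235 ± 15.4 (0.39, adjusted p = 0.00466), and Tcf12, the E protein HEB, 298 ± 24.4 against 239.6 ± 15.8 (0.31, adjusted p = 0.0209). The Tcf12 call was lost without Zmiz1 replicate 1 (0.0657) or Notch1 replicate 2 (0.0708) or 3 (0.0650). Gata3 was also higher in Zmiz1 than in control libraries (0.72, adjusted p = 0.0150), a call lost without control replicate 2 (0.0736) or 3 (0.0822). Satb1, a chromatin organizer of thymocytes, was lower in combined than in control libraries (-0.29, adjusted p = 0.0312), a call lost, at 0.0686 to 0.144, without any 1 control library or combined replicate 2 or 3. It was the 1 call of the list there (6.46% of all genes called), and without Zmiz1 replicate 2 there were 4, 2 in each direction. In Notch1 against control libraries 0 of 15 passed limma's test (5.49% of all genes called), with 2 at an unadjusted p under 0.05. Foxo1, a direct activator of Rag transcription, averaged 23.5 ± 1.83 FPKM in the control, 24.1 ± 3.59 in Zmiz1, 20.3 ± 2.43 in Notch1 and 21.7 ± 1.76 in combined libraries and was not called in any comparison.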

How the data were processed

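Values were used as the authors deposited them, as FPKM per gene symbol and library. Library preparation used a TruSeq mRNA v2 kit, per the labels' protocols. The submitters' processing notes name Cuffdiff 2.1.1 and Cufflinks, the aligner TopHat2 2.0.9 and the build mm10; roles, settings, gene annotation and scaling between libraries are not given in the sources used here. Counts were not used, and read totals are unknown.

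One limma model (3.58.1, R 4.3.3) of log2(FPKM + 1) with 4 group means and an intensity trend was fitted to the 10152 genes averaging 1 FPKM or more. It gave 6 pairwise comparisons and the interaction, all two-sided; p-values were adjusted by Benjamini-Hochberg across every tested gene, at a threshold of 0.05. "Rose", "fell" and "called" refer to it. Folds given as times are ratios of mean FPKM. With 3 libraries a side, an exact permutation test can reach no p below 0.1, so significance rests on the spread that limma shares across genes. Groups that do not overlap therefore carry no test of their own, and the share of all genes with such groups was not computed. The fit was also run on simulated data with independent noise and no library that stood apart. That run cannot show how such libraries affect the calls.

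The members and lists were chosen with earlier results of these data known. All 10 members were named, with every called gene, up to 4 per list and comparison, of 5 lists (RAG cofactors and accessory end joining, break signaling and end protection, alternative end joining, regulators of Rag transcription, neighbours of the Rag locus); Foxo1, Hmgb2, Pppde2, Nhp2l1 and Abhd13 and, in the marker lists, Ptcra and Itgam were added outside this rule, with values already seen. A further list and 1 marker are not reported here. Positions are from GENCODE M21 (GRCm38, the build also called mm10). Transcript length was the longest per symbol (90.3% of tested genes matched), for 460 long and 1294 short genes. Alternatives were a pseudocount of 0.1, no filter, quantile normalization, median ratio scaling, a filter at 5 FPKM, leaving out each library in turn, a block for the replicate number and, chosen after seeing the data, Zmiz1 replicate 2 and Notch1 replicate 3 left out together. Where a group kept 2 libraries, its spread came from the shared model. Figures used Python 3.11.15 and matplotlib 3.10.9.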

Additional observations from a re-analysis of the deposited data

How the results depend on the processing

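Of 33 fold changes of members given above, 31 kept their direction in every alternative planned. Xrcc6 in combined against Notch1 libraries, -0.01, was 0.00406 under quantile normalization and -0.078 to 0.056 without any 1 library. Dntt in Zmiz1 against control libraries was -0.26 to 0.027 without any 1 library. With both Zmiz1 replicate 2 and Notch1 replicate 3 left out, these were 0.0248 and 0.0268, and Rag1 in Zmiz1 against Notch1 libraries was -0.00736 (0.35 with them); the cause was not tested. Called members were 2 in Notch1 against control libraries (0 to 3 without any 1 library, 1 under quantile normalization), 0 in Zmiz1 against control (0 to 1), 2 in combined against control (0 to 3, and 4 without both libraries), 1 in combined against Zmiz1 (0 to 2, and 2 without both), 0 in combined against Notch1 (0 to 1) and 3 in Zmiz1 against Notch1 libraries (2 to 4, and 5 without both). Depth and the 3 libraries per group limit what differences could be detected.

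Replicate numbers were not taken as pairing the libraries, since not every same-numbered correlation of deviations from the group means was over 0.1: these were -0.18 to 0.27 (18 pairs, median 0.04), against -0.23 to 0.20 between different numbers (36 pairs, median -0.02). As a hint from the data, not the design, 9 of 12 libraries correlated best on average with their own number, out of 3 numbers possible for each. With the replicate block the calls over all genes rose from 557 to 1059 in Notch1 against control, 214 to 365 in Zmiz1 against control, 656 to 1158 in combined against control, 392 to 721 in combined against Zmiz1, 153 to 260 in combined against Notch1 and 1109 to 1843 in Zmiz1 against Notch1 libraries, and the members called were 2, 0, 3, 1, 0 and 3, Rag1 being added in combined against control libraries (adjusted p = 0.0457). With the filter at 5 FPKM the counts were 121 in Zmiz1 against control and 101 in combined against Notch1 libraries. The interaction count of 7 was 3, 18 and 3 with a pseudocount of 0.1, no filter and a filter at 5 FPKM. Without any 1 library the counts over all genes, in the order above, were 270 to 982, 73 to 240, 331 to 1076, 182 to 503, 74 to 302, 760 to 1097 and, for the interaction, 5 to 8.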
